A study of Mus musculus with 36 samples.

Results

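The T532M change of polysome over monosome asks, gene by gene, whether mRNAs of the embryonic cortex moved between single ribosomes and polysomes when 1 copy of Ddx3x carried T532M. The values compared come from 12 of the 36 libraries of the series, the monosome and polysome libraries of 3 heterozygous and 3 control lysates of the T532M cross. For each gene the change is the genotype effect in the polysome minus the genotype effect in the monosome, on the log2 scale. A negative change means that the RNA lay more in the monosome, relative to the polysome, in heterozygotes than in controls. It was computed for 18243 of the 55487 genes in the count table, those that passed the filter on low counts.

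Cortices were taken from female mouse embryos at E14.5, and each pool held the cortices of 2 embryos of like genotype. Heterozygotes, called cHet, were Emx1-Cre/+;Ddx3x-T532M lox/+. Their controls were Emx1-Cre/+, so Cre was present in both. Emx1-Cre recombines in dorsal telencephalic progenitors and the cells they give rise to, and cells of other origin in a pool are not recombined. The labels do not say how Cre alters the T532M lox allele. The LoF cross, used only for comparison, set Emx1-Cre/+;Ddx3x lox/+ cHet against Ddx3x lox/+ controls without Cre. Monosome, polysome and input libraries with the same genotype and number in their titles were taken to come from 1 lysate. Litters and days of collection are not in the labels, so p-values measure only the spread between pools or their libraries. The main test takes the 18 libraries of the T532M cross as independent, although they were taken to come from 6 lysates.

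In polysome fractionation a cleared lysate is spun through sucrose, and RNAs separate by the number of ribosomes they carry. An mRNA on which initiation is slow tends to carry few ribosomes and to lie in the monosome, whereas an efficiently initiated mRNA lies in the polysome. DDX3X is a DEAD-box RNA helicase that helps the small ribosomal subunit pass structured 5' untranslated regions (5'UTRs) on its way to the start codon. In the developing cortex it acts in neural progenitors and neurons, and mutations of the human gene cause a neurodevelopmental syndrome. The altered residue is the threonine that T532M names, in a coding sequence of 662 codons. The reference coding sequence around it, from the GENCODE M21 annotation of GRCm38 on chromosome X, is shown with that threonine codon in capitals.

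Ddx3x: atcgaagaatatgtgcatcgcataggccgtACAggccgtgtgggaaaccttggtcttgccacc

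Monosome libraries held 36999365 to 49049947 counted read pairs and polysome libraries 44214830 to 57935512. In a principal component analysis of the log2 polysome/monosome ratios of the 6 lysates, the first component took 47.7% of the variance. It set control 3 apart, at -34.2, from the other lysates, which ran from -6.87 to 25.9. As a marker of the labelled tissue, Emx1, a transcription factor of dorsal cortex, was examined in CPM (read counts scaled to library size). Its monosome level ran from 38.04 to 68.3 CPM and its polysome level from 26.1 to 40.1 CPM. Summed over 14 markers of choroid plexus and cortical hem, cHet 1 held 129.8 CPM in the monosome against 26.3 to 50.2 CPM in the other lysates. Ttr, the main secreted product of choroid plexus, was at 29.4 CPM in the monosome of cHet 1 and at 0 to 0.927 CPM in the others. The part of these cells in the results was not tested, so the members below are given by lysate, always in the order 1, 2, 3.

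Ddx3x was examined first. Its monosome level was 292, 293 and 346 CPM in controls and 275, 284 and 345 CPM in cHet, and the genotypes overlapped. In the polysome it was at 3047, 3466 and 2268 CPM in controls and at 4117, 5860 and 5261 CPM in cHet, all above the controls. Input levels were 50.1, 145 and 111 CPM in controls and 235, 198 and 166 CPM in cHet, again without overlap. The change was 0.84 (SE 0.38), with an unadjusted p of 0.042 and an adjusted p of 0.699 in edgeR's quasi-likelihood test, so the Ddx3x difference did not pass. Counts over the whole gene do not tell the T532M allele from the other allele.

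In edgeR's test without a block, all genes whose change passed lay more in the monosome in cHet. The change passed for 11 of 18243 genes (0.0603%), at an adjusted p under 0.05, and it was negative in all 11. At an unadjusted p under 0.05 there were 1249 genes, 844 lower and 405 higher. Of the 11, 10 met the conditions for naming and are the signalling proteins Dvl3, Prkaca, Gnb1 and Nck2, the chromatin proteins Mta1, Rcor2 and Zbtb12, and Klhdc2, Ankrd13a and Slc49a4. Their changes ran from -1.21 to -0.72, with a median of -0.89 against 0.02 over all genes tested. With the lysate as a block, 22 genes passed (0.121%), 21 lower (0.115%) and 1 higher (5.48e-03%), and 10 of the 11 were among them. Leaving out any of the 6 lysates left 0 calls without the block, although all 11 changes stayed negative, and RLE scaling also left 0. The fit takes its spread from all 18 libraries of the cross, inputs included, and on the 12 monosome and polysome libraries alone 0 passed, with adjusted p of 0.103 to 0.190 for the 11. DESeq2 called 81 genes, 65 lower and 16 higher.

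Genotype effects passed mainly in the monosome. There 188 genes passed (1.03%), 178 higher in cHet (0.976%) and 10 lower (0.0548%), whereas in the polysome 0 passed in edgeR, with 1444 at an unadjusted p under 0.05 and 4 in DESeq2. In the input 1 gene passed, higher in cHet (5.48e-03%). The 178 genes had a median genotype effect of 0.56 in the monosome, 0.05 in the polysome and 0.24 in the input. Among them 176 had a negative change, and in 148 its unadjusted p was under 0.05. Of the 11 genes whose change passed, 10 were also called higher in the monosome. The change subtracts the monosome effect, so both counts follow in part from the choice of genes. The monosome count was 349 with the replicate number as a block, and ranged from 7 without control 3 to 636 without control 2. The polysome count was 4 with that block and 139 without control 2, 111 lower and 28 higher. In bulk tissue, more cells of a type and more RNA per cell cannot be told apart.

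**Figure D1:**
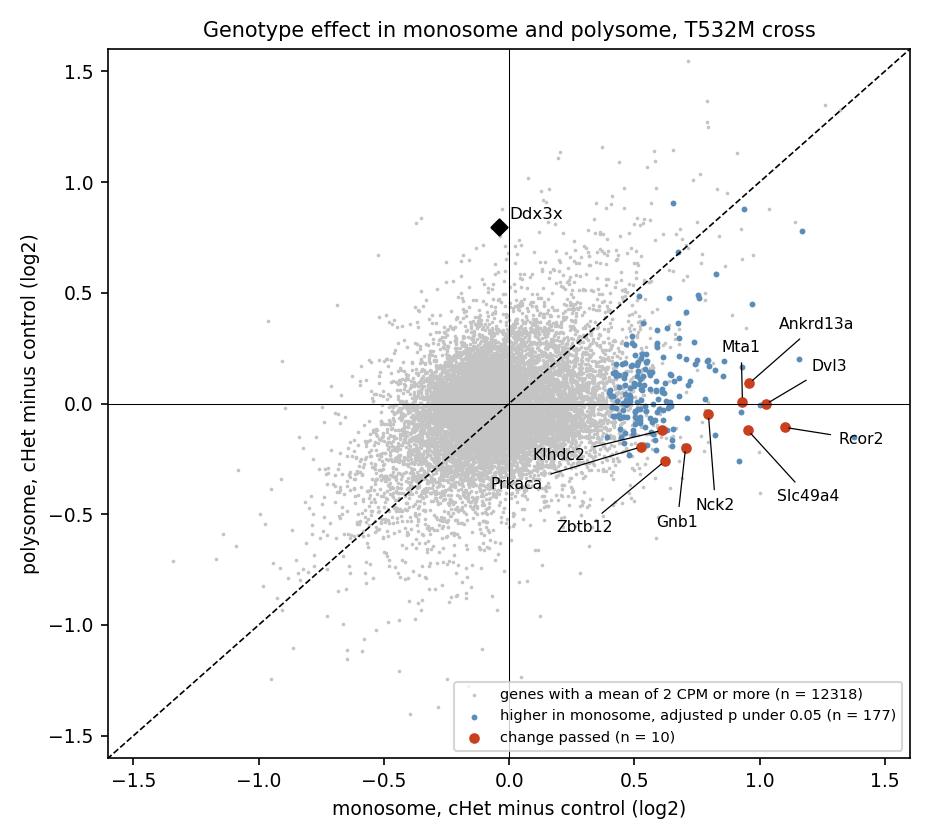
Genotype effect (cHet minus control, log2) in the monosome (horizontal) and in the polysome (vertical), 1 point per gene with a mean of at least 2 CPM, with 10 of the 12318 genes outside the axes. The 10 named genes that passed lie at 0.53 to 1.10 in the monosome and near 0 in the polysome, below the dashed line of equal effects, and Ddx3x lies above it.

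Among signalling genes, Dvl3, which encodes a Dishevelled protein that relays Wnt signals from Frizzled receptors, had the smallest p. In the monosome it was at 106, 116 and 121 CPM in controls and at 227, 205 and 267 CPM in cHet, and the polysome held 128, 123 and 125 CPM against 118, 121 and 136 CPM. The polysome/monosome ratio was 1.201, 1.06 and 1.03 in controls and 0.519, 0.588 and 0.509 in cHet. All 3 cHet ratios lay below all 3 control ratios, while polysome levels of the genotypes overlapped. The change was -1.03 (SE 0.16), with an adjusted p of 0.0486, a value shared by all 10 named genes that passed.

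Prkaca encodes the catalytic subunit of cyclic AMP-dependent protein kinase. Its monosome level was 99.01, 105 and 101 CPM in controls and 151, 145 and 143 CPM in cHet. Its polysome level was 74.9, 73.2 and 74.4 CPM in controls and 65.4, 60.0 and 68.7 CPM in cHet. Prkaca was the one named gene among those that passed whose cHet polysome levels also lay below all controls. Its ratio went from 0.756, 0.696 and 0.738 to 0.433, 0.413 and 0.482, a change of -0.72 (SE 0.12).

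Gnb1, a beta subunit of heterotrimeric G proteins, had a monosome level of 905, 924 and 885 CPM in controls and 1521, 1404 and 1498 CPM in cHet. The polysome held 635, 555 and 639.8 CPM against 492, 503 and 597 CPM. Its ratio was 0.701, 0.601 and 0.723 in controls and 0.324, 0.358 and 0.399 in cHet, a change of -0.90 (SE 0.16). Monosome levels did not overlap, and polysome levels did. Nck2, an adaptor that couples receptors to the actin cytoskeleton, had ratios of 1.03, 0.850 and 1.15 in controls and 0.494, 0.592 and 0.600 in cHet. Its monosome level was 43.6, 45.6 and 41.7 CPM in controls against 77.8, 69.8 and 79.6 CPM in cHet, and its change was -0.84 (SE 0.15).

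The 3 chromatin genes also lay higher in the monosome of every cHet. Rcor2, a neural CoREST corepressor that joins a histone demethylase and deacetylases, had the largest change among named genes that passed, -1.21 (SE 0.22). Its monosome level was 113, 131 and 134 CPM in controls and 239, 245 and 325 CPM in cHet, and its polysome level was 258, 240.4 and 260.1 CPM against 199, 231 and 273.5 CPM. Its ratio was 2.28, 1.84 and 1.94 in controls and 0.832, 0.943 and 0.842 in cHet, above 1 in each control and below 1 in each cHet. Each library is scaled to its own total, so a ratio of 1 does not mean equal amounts of RNA. Mta1, a subunit of the NuRD remodelling complex, had ratios of 0.776, 0.770 and 0.629 in controls and 0.3605, 0.435 and 0.353 in cHet, a change of -0.92 (SE 0.16). Zbtb12, a zinc finger protein, had ratios of 1.89, 1.53 and 1.33 in controls and 0.848, 0.774 and 0.916 in cHet, a change of -0.88 (SE 0.16). For both, monosome levels rose without overlap, from 179.8, 189 and 216 CPM to 363, 332 and 421 CPM for Mta1 and from 48.2, 53.6 and 57.5 CPM to 79.9, 77.1 and 88.0 CPM for Zbtb12.

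The other 3 named genes that passed act in protein turnover and transport. Klhdc2 is a substrate receptor of a cullin ubiquitin ligase, and its ratio was 1.04, 0.949 and 1.12 in controls and 0.558, 0.645 and 0.667 in cHet, a change of -0.73 (SE 0.12). Ankrd13a binds ubiquitin on internalized receptors, and its ratio was 0.816, 0.723 and 0.709 in controls and 0.3755, 0.428 and 0.427 in cHet, a change of -0.87 (SE 0.14). Slc49a4 is a membrane transporter of lysosomes, and its ratio was 1.41, 1.38 and 1.62 in controls and 0.660, 0.725 and 0.715 in cHet, a change of -1.08 (SE 0.19). In all 3 genes each cHet ratio lay below each control ratio, and monosome levels were 122, 126 and 115 against 193, 175 and 186 CPM for Klhdc2. The remaining gene of the 11, Gm12999, was outside the naming conditions and is named after its values were seen. Its monosome level was 0.307 to 0.737 CPM. Its polysome level was 0.0877, 0.134 and 0.176 CPM in controls and 0 in the 3 cHet, too low for a fold change.

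**Figure D2:**
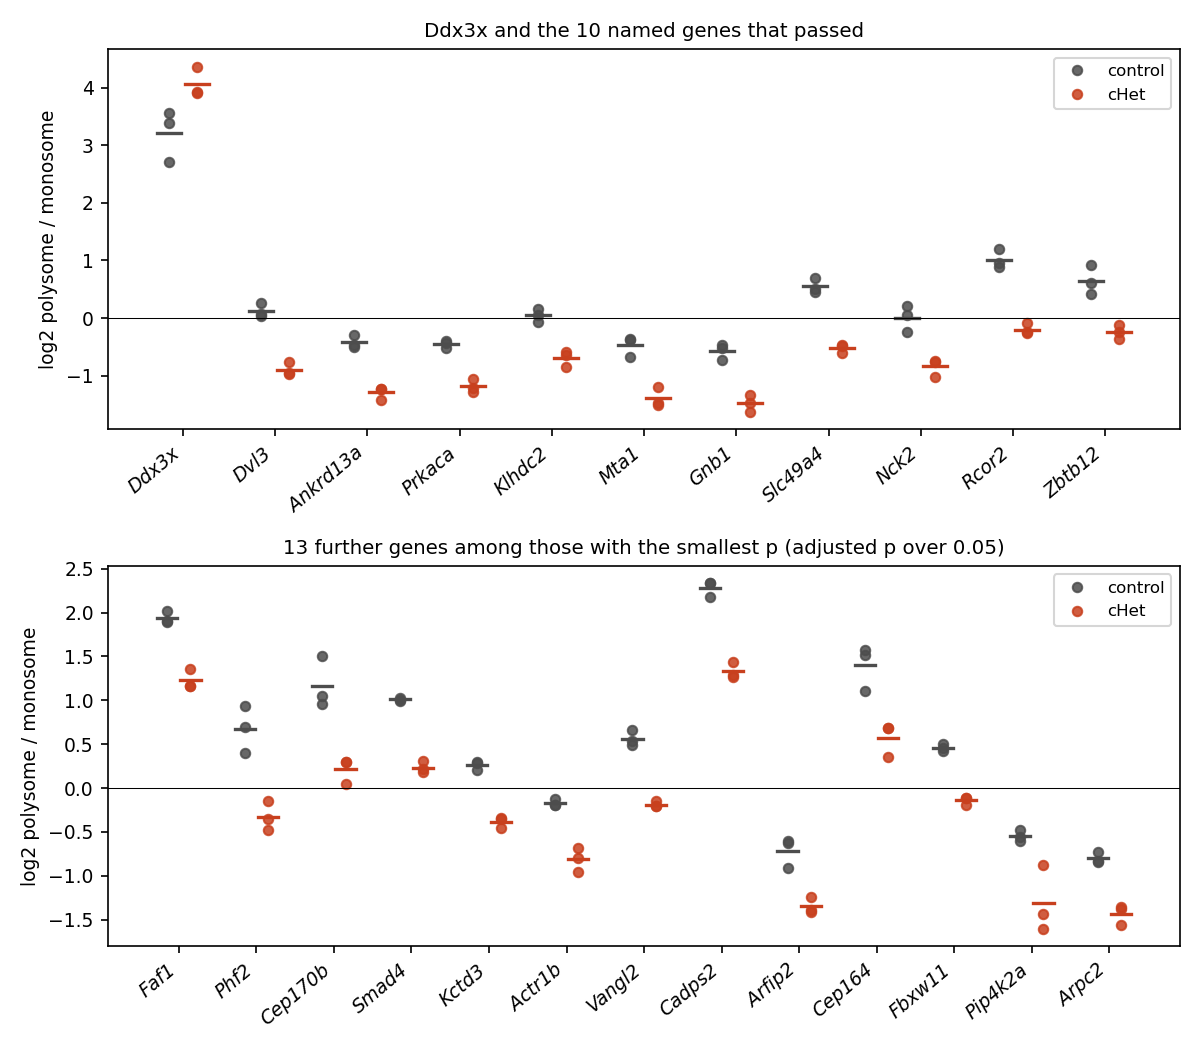
Polysome/monosome ratio (log2) of each lysate, 1 point per lysate with the mean of the 3 as a bar, for Ddx3x and the 10 named genes that passed (top) and for 13 of the 14 genes with the next smallest p (bottom). In the 23 plotted genes other than Ddx3x the 3 cHet lysates lie below the 3 controls, and for Ddx3x they lie above.

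**Figure D3:**
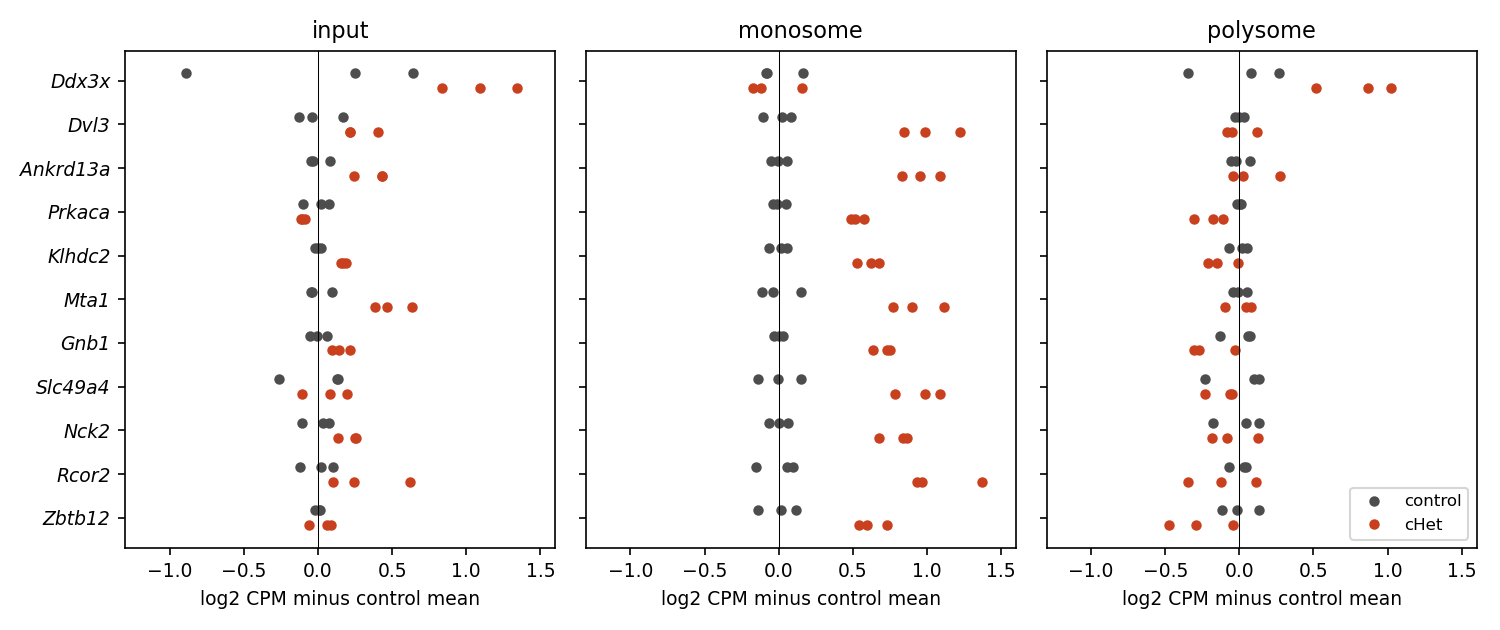
Level of Ddx3x and of the 10 named genes that passed in each input, monosome and polysome library (log2 CPM minus the mean of the 3 controls). Monosome levels of the 10 genes are higher in every cHet than in every control, polysome levels overlap except for Prkaca, and for Ddx3x the cHet are above in input and polysome.

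The 14 genes with the next smallest p did not pass, with adjusted p from 0.0508 for Faf1 to 0.188 for Arpc2, and their changes ran from -1.01 to -0.60. With the lysate block 9 of them passed. They include Phf2, a histone lysine demethylase (-1.01, SE 0.19), Vangl2, a core planar cell polarity protein (-0.75, SE 0.16), and Smad4, which carries TGF-beta and BMP signals (-0.78, SE 0.15). Faf1, an adaptor of the p97 segregase, was at -0.71 (SE 0.13), and Fbxw11, a receptor of the ubiquitin ligase that marks beta-catenin, was at -0.60 (SE 0.13). Phf2 ratios were 1.91, 1.63 and 1.32 in controls and 0.780, 0.905 and 0.717 in cHet. Smad4 ratios were 2.04, 2.01 and 1.99 in controls and 1.13, 1.24 and 1.16 in cHet, the 3 controls being close to each other. Others were the centrosomal Cep170b and Cep164, the dynactin subunit Actr1b, the vesicle priming factor Cadps2, the lipid kinase Pip4k2a, the actin nucleator subunit Arpc2, Kctd3 and Arfip2.

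Over the 24 genes chosen by smallest p, the monosome effect was 0.41 to 1.16 and passed in 23, the polysome effect was -0.34 to 0.20 and passed in 0, and the input effect was -0.11 to 0.72 and passed in 0. Their cHet ratios lay below all control ratios in 24 of 24, and monosome levels lay above all controls in 24 of 24, against 8.93% of all genes tested. Input levels lay above all controls in 18 of 24, against 6.11% of all genes tested, and in 7 of the 10 that passed. For Dvl3 the input held 191.6, 156 and 166 CPM in controls and 198, 199 and 226 CPM in cHet. The part of these input levels in the monosome rise was not tested. Over all genes, 1572 (8.62%) had the 3 cHet ratios below the 3 controls and 1397 (7.66%) had them above. Since p chose the 24, these counts describe them and are not a test. Polysome levels were below all controls in 4 of 24, namely Prkaca, Faf1, Fbxw11 and Pip4k2a, against 5.8% of all genes tested.

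In edgeR no gene rose past the threshold without the block, and with it 1 did, whereas DESeq2 called 16 higher. Manba, a lysosomal mannosidase, is named after its values were seen. Its ratio was 8.31, 9.15 and 8.15 in controls and 25.2, 20.1 and 16.5 in cHet, a change of 1.34 (adjusted p = 0.0311 with the block and 0.337 without it). Its monosome level was low, at 1.10, 1.42 and 1.14 CPM in controls and 0.658, 0.704 and 0.515 CPM in cHet.

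The starts of the coding sequences are shown because DDX3X helps the small ribosomal subunit pass structured 5'UTRs, which end at the start codon. Each line gives the 20 bases before the start codon, the start codon in capitals and the 7 bases after it, from the GENCODE M21 annotation of GRCm38. The first 5 passed and have mostly G and C before the start codon, and Nck2 passed with less. Dvl1 and Dvl2 are the Dvl3 paralogs that did not pass. Of the other named genes that passed, not shown, Ankrd13a had 85% G or C in the 20 bases, Klhdc2 and Zbtb12 70% and Gnb1 50%.

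Dvl3, start codon chr16:20517195-20517197, + strand: gcggggccgaggccggagccATGggcgaga
Prkaca, start codon chr8:83973187-83973189, + strand: ccggccgcgacgccgccgcgATGggcaacg
Mta1, start codon chr12:113098418-113098420, + strand: gccccgccgccggcccggacATGgccgcca
Slc49a4, start codon chr16:35769239-35769241, - strand: ggccggcgggcggcgtcgccATGggctcgg
Rcor2, start codon chr19:7268962-7268964, + strand: cggggctgccgggtagggtaATGccctcag
Nck2, start codon chr1:43533568-43533570, + strand: aaagaaggactccatgaaagATGacagaag
Dvl1, start codon chr4:155847735-155847737, + strand: cgcgtcgcccctgccgcgccATGgcggaga
Dvl2, start codon chr11:70000833-70000835, + strand: gggagcgcgcgagcgagaccATGgcgggca

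The median share of G and C in those 20 bases was 77.5% in 22 of the 24 genes and 65% in 10832 genes with a mean of at least 2 CPM. At least 70% was G or C in 18 of the 22 and in 42.8% of all. Over the whole 5'UTR, the median GC content was 78.8% in the 10 named genes that passed, 77.9% in 23 of the 24 and 65.4% in 11116 genes with a mean of at least 2 CPM. Mta1, at 92.1%, was above 99.9% of those genes, whereas Nck2, at 67.1%, and Arfip2, at 65.0%, were near the middle. The predicted folding energy of the last 80 bases of the 5'UTR had a median of -34.65 kcal/mol in the 10 genes and -25.4 kcal/mol over all.

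The change was lower the higher the GC content of the 5'UTR. When genes were split into quintiles by 5'UTR GC content, the median change was 0.07, 0.06, 0.04, -0.004 and -0.09 from the lowest quintile (GC 23.9 to 56.9%) to the highest (74.0 to 94.7%). The quintiles hold only genes with a mean of at least 2 CPM, whereas all genes tested include lower ones. The 3 cHet ratios lay below the 3 controls for 5.66%, 5.26%, 6.92%, 11.5% and 23.4% of genes from the lowest quintile to the highest. They lay above the controls for 11.5%, 10.5%, 9.84%, 8.74% and 4.72%. Over all genes tested these shares were 8.62% below and 7.66% above. Called higher in the monosome were 6 of 2225 genes in the lowest quintile and 115 of 2223 in the highest, or 0.27% and 5.17%. The quintiles between them held 0.18%, 0.63% and 1.44%, and all genes tested, lower ones included, 0.976%.

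By lysate, the median log2 ratio of the highest quintile minus that of the lowest, set against the control mean of each gene, was 0.016, -0.024 and 0.003 in controls. It was -0.19, -0.14 and -0.14 in cHet, so that every cHet lysate lay below every control, control 3 included. In the monosome the same contrast was -0.018, -0.0008 and 0.018 in controls and 0.18, 0.14 and 0.18 in cHet. In the polysome the genotypes overlapped, at -0.008, -0.025 and 0.023 in controls and 0.004, 0.022 and 0.045 in cHet. The input also overlapped, at 0.099, -0.064 and -0.025 in controls and 0.064, 0.061 and 0.14 in cHet. Set against the input of the same lysate, the monosome contrast overlapped, at -0.126, 0.074 and 0.046 in controls and 0.133, 0.093 and 0.044 in cHet. Against input, the polysome contrast overlapped too, at -0.102, 0.053 and 0.054 in controls and -0.041, -0.020 and -0.0996 in cHet. The part of input levels in the monosome contrast was not tested.

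For the ratio this separation by 5'UTR GC content had a 2-sided exact permutation p of 0.1, the smallest that 3 lysates against 3 allow, and 0.167 after Benjamini-Hochberg adjustment over 5 transcript features. Here exact means that all assignments of the labels were counted. Labels were permuted after each gene was centred on the 3 controls, so the p is approximate. Folding energy and 5'UTR length also separated the genotypes, with the same p of 0.1. From the most to the least stable fold the contrast was 0.14, 0.10 and 0.10 in cHet and -0.002, 0.019 and -0.004 in controls. From the shortest to the longest 5'UTR it was -0.10, -0.12 and -0.08 in cHet and 0.029, -0.049 and 0.016 in controls. By 5'UTR length the monosome contrast overlapped, at 0.066, 0.062 and 0.0123 in cHet and 0.0125, -0.008 and 0.0002 in controls. In the input the length contrast did not overlap, at 0.139, 0.063 and 0.054 in cHet and -0.039, 0.030 and 0.016 in controls. For the GC content and the length of the coding sequence the genotypes overlapped in the ratio, each with an exact permutation p of 0.4. By coding length the ratio contrast varied widely, at 0.38, 0.48 and -0.02 in cHet and 0.16, 0.23 and -0.39 in controls. In the monosome, coding GC also separated the genotypes, with an exact permutation p of 0.1. That contrast was 0.137, 0.105 and 0.050 in cHet and -0.035, 0.021 and 0.017 in controls. Within quintiles of other features, the median edgeR change of the highest 5'UTR GC quintile minus that of the lowest was negative in every quintile. It was -0.21 to -0.07 by coding length, -0.19 to -0.13 by coding GC, -0.24 to -0.13 by 5'UTR length and -0.23 to -0.07 by mean level. These values come from the fit over all lysates and have no spread between lysates. Quintiles of folding energy were not examined in this way. Input levels varied widely with coding GC between pools of 1 genotype, at 0.45, -0.33 and -0.10 in controls, and the part of this in the results was not tested.

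**Figure D4:**
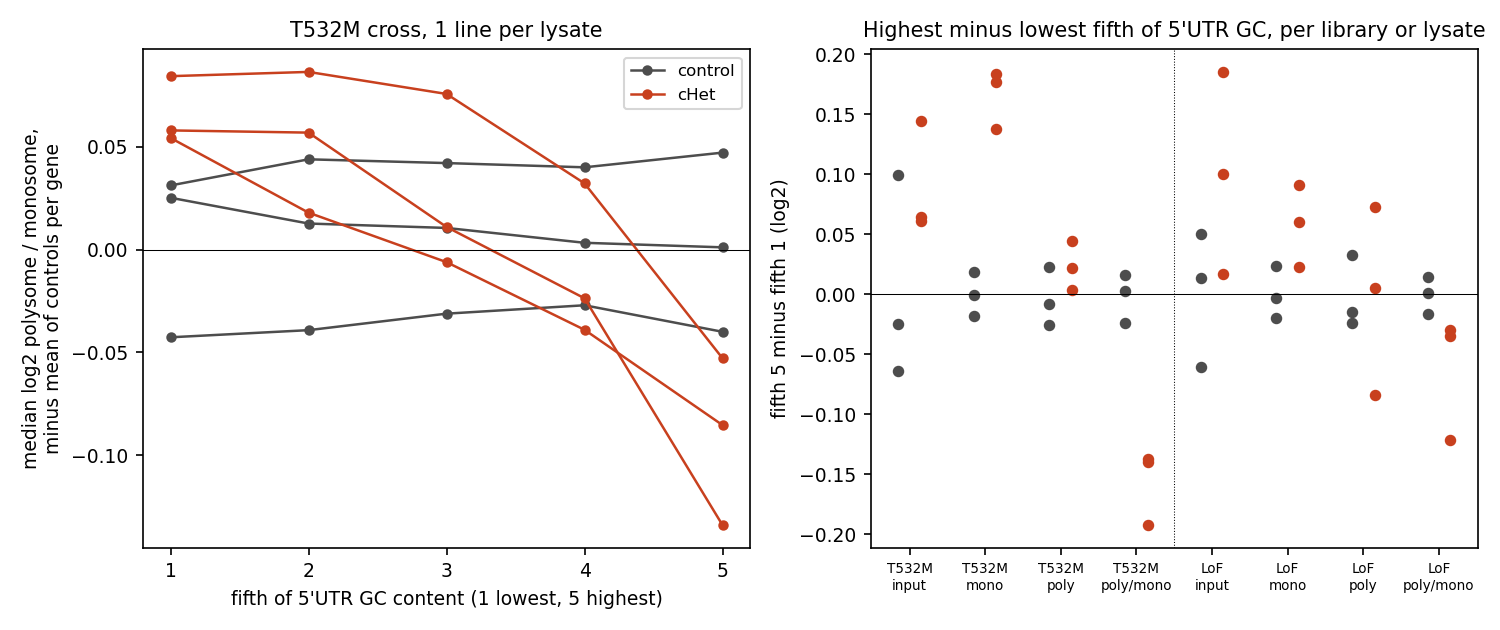
Left, median log2 polysome/monosome ratio in each quintile of 5'UTR GC content, per lysate of the T532M cross, after subtracting the mean of the 3 controls for each gene. Right, highest minus lowest quintile (log2) for input, monosome, polysome and their ratio in both crosses, with controls in grey and cHet in red; in the T532M monosome cHet lie at 0.14 to 0.18 and controls at -0.018 to 0.018.

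The Wnt pathway held the gene with the smallest p. Of 25 genes tested, 1 passed, Dvl3, against 0.0603% of all genes tested. At an unadjusted p under 0.05 in edgeR, 7 of the 25 were lower and 0 higher. Over all 18243 genes tested, 844 were lower and 405 higher at that p. The list median was -0.07, against 0.02 over all genes. For 8 of 25 the cHet ratios lay below all controls, against 8.62% of all genes, and for 0 they lay above, against 7.66%. Csnk1e, a casein kinase that phosphorylates Dishevelled, had ratios of 0.580, 0.508 and 0.573 in controls and 0.349, 0.368 and 0.370 in cHet, and a change of -0.61 (SE 0.15, adjusted p = 0.239). Gsk3a, a kinase of the beta-catenin destruction complex, had ratios of 0.604, 0.552 and 0.581 in controls and 0.366, 0.396 and 0.396 in cHet, and a change of -0.58 (SE 0.15, adjusted p = 0.276).

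The paralogs of these genes, named after their values were seen, gave other values. Dvl1 ratios were 0.484, 0.437 and 0.429 in controls and 0.466, 0.528 and 0.459 in cHet, a change of 0.11 (SE 0.15). Dvl2 ratios were 14.3, 14.8 and 10.2 in controls and 15.4, 15.7 and 13.8 in cHet, a change of 0.19 (SE 0.22). Both Dvl1 and Dvl2 overlapped between genotypes, and the difference between paralogs was not tested. The 5'UTR of Dvl1 is as GC-rich as that of Dvl3, 83.5% against 81.7%, and that of Dvl2 is at 69.0%. Gsk3b, with a 5'UTR GC content of 59.7% against 79.6% for Gsk3a, had ratios of 2.26, 1.96 and 2.02 in controls and 1.82, 1.69 and 2.14 in cHet, a change of -0.15 (SE 0.21).

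A list of 14 mRNAs reported to depend on DDX3X for translation was assembled from earlier work on the helicase, with results of these data known, so its direction is not independent evidence. Of the 14, 2 passed as lower, Prkaca and Rcor2, against 0.0603% of all genes tested. A negative change was found in 10 of the 14, against 8781 of all 18243. The list median was -0.18, against 0.02 over all genes. Called higher in the monosome were 5 (Prkaca, Rcor2, Topbp1, Odc1 and Jund), against 0.976% of all genes tested, and for 6 the cHet ratios lay below all controls, against 8.62%. Topbp1, a scaffold of the DNA replication checkpoint, was the lowest of the list at -1.53 (SE 0.36, adjusted p = 0.198, and 0.0594 with the block). Its ratio was 3.47, 3.32 and 2.93 in controls and 1.03, 1.33 and 1.02 in cHet, and its monosome level went from 96.1, 125 and 108 CPM to 257, 274 and 324 CPM. The monosome rise of Topbp1 passed (1.38, adjusted p = 0.0127). Odc1, the first enzyme of polyamine synthesis, was at -0.39 (SE 0.14), and Rac1 and Ccne1, a small GTPase and a cyclin, were at -0.27 and -0.32.

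**Figure D5:**
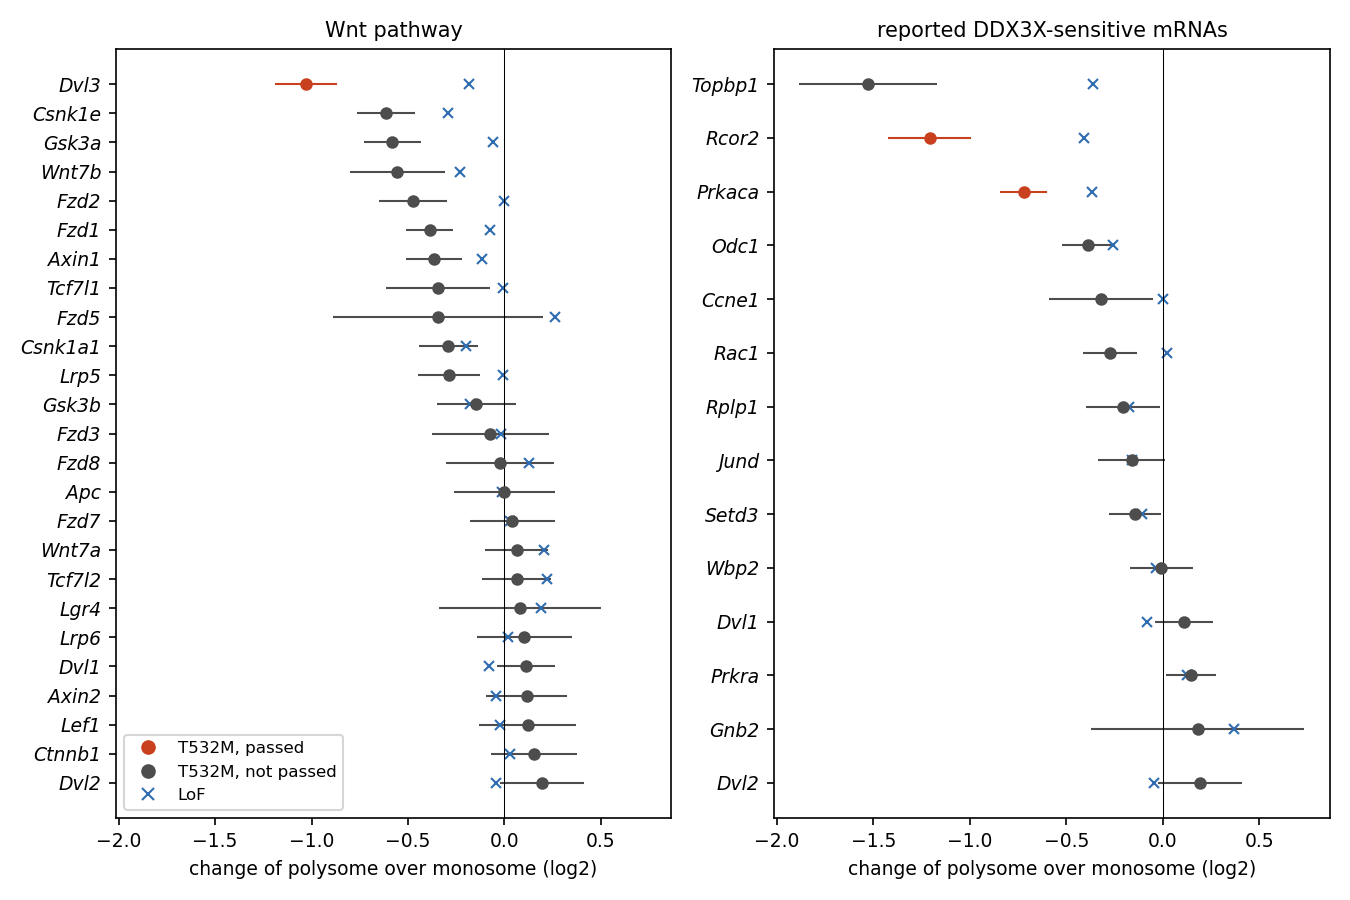
Change of polysome over monosome (log2, points with bars of 1 SE) of each tested member of the Wnt pathway and of the reported DDX3X-sensitive mRNAs in the T532M cross, with the LoF change as a cross. Dvl3, Rcor2 and Prkaca, in red, passed, and Topbp1 is lower with a wider error.

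Lists of the translation machinery held 0 genes that passed. Among 82 cytosolic ribosomal proteins 1 was lower at an unadjusted p under 0.05 and the median was -0.05. Of 45 initiation factors 1 was lower and 5 were higher at an unadjusted p under 0.05, and the median was 0.10. Of all 18243 genes tested, 844 were lower and 405 higher at that p. Eif2s3x, a subunit of the factor that brings the initiator tRNA, was at 0.54 (SE 0.18, adjusted p = 0.505). The change was positive in 9462 of all 18243 genes tested. It was positive in 35 of 38 DEAD and DEAH box helicases (median 0.23), 19 of 20 aminoacyl-tRNA synthetases (median 0.21) and 25 of 30 cell cycle and replication genes (median 0.23), with 0 passing. These medians moved with control 3, and without it they were 0.09, 0.11 and 0.05.

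Cell type lists held 0 genes that passed. The median change was -0.11 in cortical excitatory neuron genes, with medians of -0.22 in the monosome and -0.34 in the polysome, and summed over the list the genotypes overlapped in both fractions, at 5711, 5063 and 5891 CPM in controls and 4465, 4941 and 5089 CPM in cHet monosomes. The polysome sums were 13059, 9917 and 10873 CPM in controls and 7418, 8821 and 10131 CPM in cHet. In the input the genotypes did not overlap, with sums of 3519, 3427 and 3936 CPM in controls and 3310, 3153 and 3230 CPM in cHet. The part of this input difference in the other fractions was not tested. Neurod6, a transcription factor of these neurons, is named after its values were seen. It was at 377, 303 and 368 CPM in control and 179, 201 and 329.7 CPM in cHet polysomes. Polysome levels of Neurod6 overlapped only through cHet 3 and control 2. Its monosome levels did not overlap, at 706, 588 and 667 CPM in controls and 554, 538 and 566 CPM in cHet. Among radial glia genes Vim, an intermediate filament of progenitors, was at 0.56 (SE 0.18, adjusted p = 0.509), with ratios of 6.98, 8.01 and 5.26 in controls and 8.84, 11.05 and 9.77 in cHet. Basp1, a growth cone protein, was the lowest of its list by p, at -0.92 (adjusted p = 0.224).

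In the LoF cross, where libraries and controls are separate, the change was also negative for these genes. The LoF change was below 0 in all 24 (median -0.24, against a T532M median of -0.81), whereas it was below 0 in 53.1% of 12318 genes and in 61.4% of those in the highest quintile of 5'UTR GC. The LoF cHet ratios lay below all LoF controls for 11 of 24, against 5.01% of those genes. Rcor2, as log2 ratios, was at 1.17, 1.16 and 1.33 in LoF controls and 0.80, 0.75 and 0.89 in LoF cHet. Gnb1 was at -0.74, -0.30 and -0.48 in LoF controls and -0.79, -0.95 and -0.98 in LoF cHet. Rcor2 and Gnb1 did not overlap, whereas Dvl3 did, at 0.29, 0.07 and 0.24 in LoF controls and -0.30, 0.18 and 0.12 in LoF cHet.

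No gene passed in the LoF cross alone, 0 of 19121 in edgeR, with 589 at an unadjusted p under 0.05. The difference between the crosses also passed for 0 of 19121, with 593 at an unadjusted p under 0.05 in edgeR and 620 in DESeq2, which called 0 as well. Among the 3 genes with the smallest p for that difference were Phf2 (-0.90) and Dvl3 (-0.86), each with an adjusted p of 1.00. Because the 24 genes were chosen by their T532M p, the choice favours large T532M values, and a weaker effect in the LoF cross is not shown. The 5'UTR GC contrast of the ratio was -0.12, -0.030 and -0.035 in LoF cHet and -0.016, 0.014 and 0.0008 in LoF controls, without overlap. Its exact permutation p was 0.1, and 0.5 after Benjamini-Hochberg adjustment over 5 transcript features. The LoF ratio contrasts by folding energy and by 5'UTR length overlapped between genotypes. In LoF cHet they were 0.11, 0.001 and -0.021 by folding energy and 0.044, -0.12 and -0.18 by 5'UTR length. In the LoF monosome alone the 5'UTR GC contrast overlapped, at 0.061, 0.023 and 0.091 in cHet and -0.003, 0.024 and -0.019 in controls. The folding energy contrast did not overlap there, at -0.048, -0.028 and -0.051 in cHet and 0.0007, -0.008 and 0.008 in controls.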

How the data were processed

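The authors deposited raw counts of read pairs per gene. Per the file headers, featureCounts 2.0.3 counted reverse-stranded pairs over whole gene spans, introns included, on GENCODE M25 and GRCm38. Alignment by STAR 2.7.11a, read checks by FastQC 0.11.7 and tests by DESeq2 1.34.0 are listed in the submitters' processing notes. The sources used here do not give which gradient fractions were joined. The authors' own comparison tables were not used here.

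The deposited counts of the 18 libraries of the T532M cross were fitted with edgeR 4.0.16 in R 4.3.3 (TMM scaling, filterByExpr, 6 groups, quasi-likelihood test, Benjamini-Hochberg adjustment, threshold 0.05), and all 36 libraries for the difference between crosses. Levels are CPM on TMM library sizes. Ratios per lysate add 0.05 CPM to both fractions, and ratios and their orders were read from those. Alternatives were a lysate block, RLE scaling, DESeq2 1.42.0, other filters, fewer libraries and leaving out each lysate. Libraries of 1 title number and genotype deviated together, with correlations of 0.113 to 0.625 in 18 of 18 pairs, so the lysate block is printed where it changes a call. The fits were also run on simulated counts drawn without a shared lysate effect. These runs cannot show how the test without a block behaves under such correlations.

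Transcript features come from 1 transcript per gene of GENCODE M21, with folding by ViennaRNA 2.7.2. Up to 24 genes were named, Ddx3x first, then those that passed with an assigned name and a mean of at least 2 CPM, then the smallest p, and up to 3 members of each of 38 lists by smallest p. The members, lists and rules were chosen with earlier results of these data known. Values of near-identical copies, and of overlapping genes of the same strand, are uncertain because they may share reads. A named gene and a sequence are not reported here.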

Additional observations from a re-analysis of the deposited data

How the results depend on the processing

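All 24 genes kept a negative change in each of 21 alternatives, and Ddx3x kept a positive one, but the count of calls was not stable. For the change, 11 calls became 22 with the lysate as a replicate block, 32 with that block and a length correction, 81 with DESeq2 (65 lower, 16 higher), 17 among genes with a mean of at least 2 CPM, 7 with no low-count filter, 0 with RLE scaling and 0 with monosome and polysome libraries only. Leaving out each lysate gave 0 to 0. Chosen after seeing the data, the lysate block gave 5 with monosome and polysome libraries only, and 0 to 35 with each lysate left out, 0 without cHet 1 or cHet 2 and 35 without cHet 3. RLE scaling moved the median of all genes from 0.02 to 0.07. For the monosome, 188 calls became 349 with the number as a replicate block, 564 with DESeq2, 310 among genes with a mean of at least 2 CPM, and 7 to 636 with each lysate left out. For the polysome, 0 calls became 4 with the block, 1 with RLE scaling, 4 with DESeq2, 58 with no low-count filter, 1 among genes with a mean of at least 2 CPM, and 0 to 139 with each lysate left out, 139 without control 2. The difference between crosses stayed at 0 in all its alternatives, the block included. With each lysate left out, the change of Col5a1 ran from -0.037 to 0.75 and the change of Flt1 from -0.0035 to 0.40, both reversed without control 3 alone (-0.032 and -0.0039 with the block), and the change of Malat1 reversed to 0.0013 with the block and without cHet 1. The cause of these shifts was not tested. The number of lysates, 3 a genotype, limits the precision.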

Other observations

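Of the 38 gene lists examined, the Wnt pathway and the reported DDX3X-sensitive mRNAs held genes that passed. Of all 18243 genes tested, 844 were lower and 405 higher at an unadjusted p under 0.05 in edgeR. Among 18 neuronal microtubule and growth genes, 5 were lower at an unadjusted p under 0.05 and 0 were higher, yet the list median was -0.02. Of the 5, Tuba1a was low, at a mean of 0.193 CPM. Stmn1, a microtubule destabilizer of newborn neurons, was at -0.68 (SE 0.22, adjusted p = 0.506 in edgeR), with a genotype effect of 0.46 in the monosome and -0.22 in the polysome. Among 12 genes of intermediate progenitors, the dividing daughters of radial glia, 2 were lower and 2 were higher at an unadjusted p under 0.05. Sstr2, a somatostatin receptor, was at -0.59 (SE 0.17, adjusted p = 0.392) and Dll3, a divergent Notch ligand, at 0.51 (SE 0.16, adjusted p = 0.444). Of 75 nuclear genes of oxidative phosphorylation, 52 had a negative change, against 8781 of all 18243 genes tested. At an unadjusted p under 0.05, 6 of the 75 were lower and 5 higher, and the median change was -0.10. Their median genotype effect in the input was -0.22. By lysate, their median log2 ratios, set against the control mean of each gene, overlapped between genotypes. They were -0.07, -0.14 and 0.19 in controls and -0.05, -0.27 and -0.07 in cHet. Among 15 genes of meninges and collagens 14 had a positive change, against 9462 of all 18243, and their median was 0.31. Their median log2 ratios, set against the control mean of each gene, were -0.001, 0.38 and -0.27 in controls and 0.76, 0.30 and -0.05 in cHet, so the genotypes overlapped.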
